A study of Mus musculus with 8 samples.

Results

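The genes described are 41 mouse genes of fatty acid synthesis, desaturation and elongation, fatty acid activation, glycerolipid assembly, lipid droplets and lipid uptake. They were chosen by name, and each was read through the probe sets that the array's annotation gives to it alone. Of the 41 genes, 40 had such a probe set, 101 probe sets in all, among 18193 genes with one on the array. Acsl1 was not analysed here. RNA came from mouse embryonic fibroblasts (MEFs), embryo-derived cells that had been immortalized with large T antigen, a viral oncoprotein. It was measured on Affymetrix arrays in 4 groups of 2 arrays: VHL/FIH null, VHL null, FIH null and wild type. VHL/FIH null cells had been made from VHLdf/FIHdf MEFs, VHL null cells from VHLdf MEFs and FIH null cells from FIHdf MEFs, each with adeno-cre, an adenovirus that carries Cre recombinase. Whether wild type cells received the virus is not stated in the sources used here. Every group carried large T antigen and grew at 21% oxygen in high glucose medium with 10% serum. Each null group had its own parent MEFs, so genotype and line of origin cannot be told apart. The labels call the 2 arrays of a group biological replicates without naming separate embryos or cultures, so p-values reflect the spread between these arrays, which may be technical.

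VHL recognizes the alpha subunits of hypoxia-inducible factors (HIF) for a ubiquitin ligase, which has them degraded. FIH, the product of Hif1an, hydroxylates an asparagine of HIF and thereby lowers its activity. Fatty acids are built in the cytosol from acetyl-CoA by Acly, acetyl-CoA carboxylase and Fasn, then desaturated, elongated, joined to CoA and esterified to glycerol, and many of these genes are targets of the SREBP transcription factors. Lipid can also be taken up from serum lipoproteins and kept in droplets coated by perilipins. Vldlr, Plin2 and Hilpda are known hypoxia-inducible genes.

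Promoter sequence from RefSeq was available for 32 of the 41 genes, as 42 windows of 250 bases before a start site. Windows are printed 5′ to 3′ on the gene's strand for Hilpda, Vldlr and Plin2, which rose without VHL, and for Fasn, which fell. Capitals mark every match, on either strand, of the 5 motifs described further on: 2 hypoxia response element cores, an E-box, a sterol element core and CCAAT.
Hilpda (GRCm38.p6, chr6:29272376-29272625, plus strand): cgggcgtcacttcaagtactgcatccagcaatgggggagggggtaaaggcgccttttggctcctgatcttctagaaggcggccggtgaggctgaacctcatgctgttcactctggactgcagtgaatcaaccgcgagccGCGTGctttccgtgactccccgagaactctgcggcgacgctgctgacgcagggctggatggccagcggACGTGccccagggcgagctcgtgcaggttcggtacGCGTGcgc
Vldlr (GRCm38.p6, chr19:27216770-27217019, plus strand): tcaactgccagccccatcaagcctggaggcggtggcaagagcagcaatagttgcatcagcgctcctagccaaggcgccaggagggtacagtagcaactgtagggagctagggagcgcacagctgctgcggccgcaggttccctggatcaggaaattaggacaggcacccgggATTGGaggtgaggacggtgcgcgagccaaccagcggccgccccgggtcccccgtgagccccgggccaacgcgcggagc
Plin2 (GRCm38.p6, chr4:86670060-86670309, minus strand): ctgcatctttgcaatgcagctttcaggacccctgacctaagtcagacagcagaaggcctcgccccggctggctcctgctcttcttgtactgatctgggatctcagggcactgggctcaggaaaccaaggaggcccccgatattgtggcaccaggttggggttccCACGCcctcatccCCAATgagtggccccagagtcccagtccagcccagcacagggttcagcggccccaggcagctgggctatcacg
Fasn (GRCm38.p6, chr11:120824548-120824797, minus strand): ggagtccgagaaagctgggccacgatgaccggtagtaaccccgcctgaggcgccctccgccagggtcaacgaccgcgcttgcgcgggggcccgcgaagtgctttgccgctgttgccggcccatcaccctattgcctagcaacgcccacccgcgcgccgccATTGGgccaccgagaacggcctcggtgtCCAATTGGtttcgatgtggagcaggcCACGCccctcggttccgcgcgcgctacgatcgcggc

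Values are MAS5 signals, a linear brightness per probe set that the authors had scaled, so a difference is relative to the level of the array. A gene was tested where a probe set passed 291.1, the median signal, on 2 or more arrays, and its brightest tested probe set stood for it. Differences are on the log2(signal + 16) scale and come, with their standard errors (SE) and Benjamini-Hochberg adjusted p, from limma fitted on 11564 genes. A gene is said to rise or fall where adjusted p was under 0.05. Of the 41 genes 37 were tested. Acacb, the mitochondrial-membrane acetyl-CoA carboxylase, Lpl, the lipoprotein lipase, and Cd36, a fatty acid translocase, stayed below the cutoff on all 8 arrays, at no more than 136 in any of their probe sets. Mgll was below it in VHL null and FIH null cells and Fabp4 in VHL null cells, so these 2 genes entered the test through the groups where they were higher. The other 35 exceeded it on every array.

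Mean Vhl signal was 979 ± 116 in VHL/FIH null, 731 ± 33.2 in VHL null, 3479.7 ± 76.5 in FIH null and 3294 ± 36 in wild type cells, and mean Hif1an signal was 1286 ± 166 in VHL/FIH null, 2033 ± 169.9 in VHL null, 1691 ± 21.7 in FIH null and 2867 ± 206 in wild type cells (SD, n = 2 each). Hif1an was lower in FIH null than wild type cells (-0.75, adjusted p = 0.00271), and Vhl in VHL null than wild type cells (-2.15, adjusted p = 1.84e-07). Hif1an in VHL null cells, where it was not targeted, was also below wild type (-0.49, adjusted p = 0.00597). The sources used here do not place the probes against the deleted exons. Of 12 fibroblast markers, 8 exceeded the cutoff on all arrays, and summed marker signal was 380388 to 434310 in VHL/FIH null, 366449 to 378046 in VHL null, 415697 to 445543 in FIH null and 355736 to 377106 in wild type cells. Of 11 tested, 3 rose and 3 fell in VHL/FIH null cells against wild type. Col3a1 (1.15), S100a4 (0.35) and Col5a1 (0.30) rose, while Pdgfrb fell by 0.86, and Dcn and Pdgfra were below the cutoff there (means of 130.2 and 175). Dcn was also below it in FIH null cells (mean of 113), Thy1 in VHL/FIH null and FIH null cells (means of 158 and 174), and Lum on every array. Control probe sets for 18S ribosomal RNA averaged 1018 in VHL/FIH null, 1209 in VHL null, 518 in FIH null and 524 in wild type arrays, and their part in the results was not tested. Spiked hybridization controls exceeded wild type by 0.52 log2 units in VHL/FIH null, 0.38 in VHL null and 0.26 in FIH null arrays. Scaling to these controls therefore lowers every gene of a null group by that amount.

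Where VHL was lost, most genes that make and modify fatty acids fell, and a few genes, Vldlr, Hilpda and Plin2 among them, rose. Of the 37 tested genes, 6 were higher and 20 lower in VHL null than in wild type cells. That is 70.3% of them (16.2% higher and 54.1% lower), where 43.8% of all tested genes differed (15.5% higher and 28.4% lower). In VHL/FIH null against wild type cells 6 rose and 18 fell, 64.9% of the 37 (16.2% higher and 48.6% lower). That stood beside 41.4% of all genes (17.8% higher and 23.6% lower). Between VHL/FIH null and VHL null cells 8 rose and 11 fell, 51.4% (21.6% higher and 29.7% lower) beside 37.7% (22.3% higher and 15.4% lower). Between VHL/FIH null and FIH null cells 7 rose and 18 fell, 67.6% (18.9% higher and 48.6% lower) beside 45.5% (20.6% higher and 25% lower). In each of these comparisons the share that rose was close to that of all genes. In FIH null against wild type cells 1 rose and 2 fell, 8.11% beside 6.55% (1.96% higher and 4.59% lower). The share in FIH null cells was close to that of all genes. In bulk RNA, fewer cells of a type and less RNA per cell cannot be told apart.

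The median difference of the 37 genes was -0.37 in VHL null minus wild type, beside -0.099 over all tested genes, and -0.26 beside -0.050 in VHL/FIH null minus wild type. It was -0.020 beside -0.0025 in FIH null minus wild type. Arrays of the 2 groups did not overlap for 34 of the 37 genes in VHL null against wild type (74% of all genes), 31 in VHL/FIH null against wild type (70.1%) and 24 in FIH null against wild type (55.5%). They did not overlap for 28 in VHL/FIH null against VHL null (67.4%) and 29 in VHL/FIH null against FIH null (72.8%). Scaling to hybridization controls gave 4 of the 37 higher and 30 lower in VHL null minus wild type, where 72.3% of all genes were called and 5.19% of those calls were higher. It gave 3 and 29 in VHL/FIH null minus wild type (78.8% of all genes called, 5.57% of the calls higher), 0 and 22 in FIH null minus wild type (43.8% and 1.38%) and 5 and 14 in VHL/FIH null minus VHL null (37.8% and 31.8%). Centring each array on its median gave 6 higher and 2 lower in FIH null minus wild type, with 12.8% of all genes called and 72.3% of those calls higher.

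**Figure D1:**
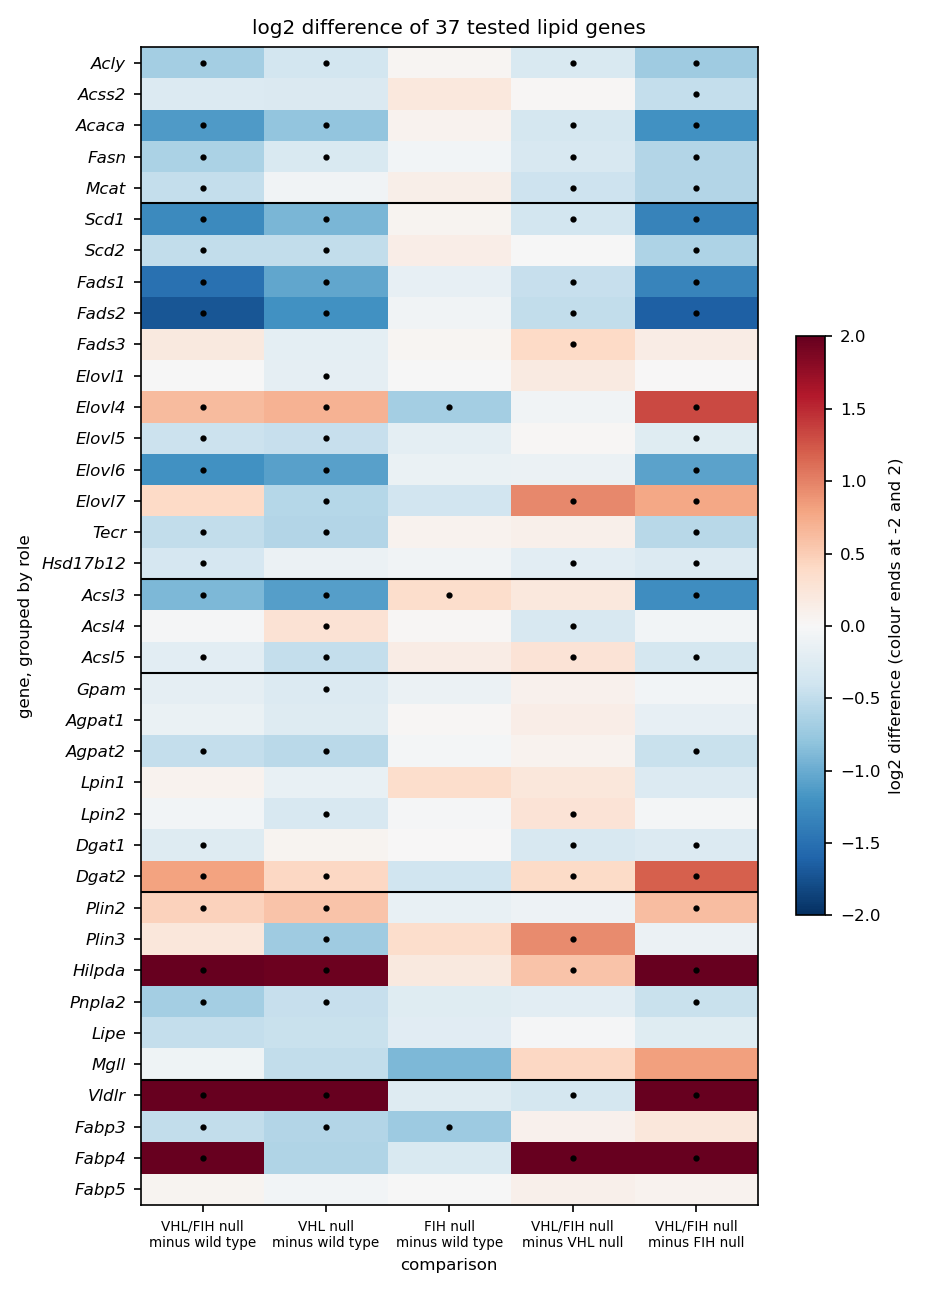
Log2 differences of the 37 tested genes (rows, grouped by role between black lines) in 5 comparisons (columns), red for higher and blue for lower in the group named first. A dot marks adjusted p under 0.05. Desaturase and elongase rows are mostly blue where VHL was lost, and Hilpda and Vldlr are red there (3.79 for Vldlr in VHL null minus wild type).

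Among the uptake genes, Vldlr and Fabp4 rose by large factors, in different groups of cells. Vldlr encodes the very low density lipoprotein receptor, which takes up triglyceride-rich particles. Its signal was 16868 and 15874 in VHL/FIH null, 20281 and 21511 in VHL null, 1102 and 1400.2 in FIH null and 1442 and 1539.8 in wild type cells. The 4 arrays without VHL lay far above the 4 with it, 14-fold in VHL null over wild type cells (log2 difference 3.79, SE 0.102, adjusted p = 8.92e-10). Of its 6 tested probe sets, 3 were above the cutoff on at least 1 array of each group and gave 2.82 to 3.79. The one that gave 2.82 read 303 and 266 in wild type cells. The other 3 passed the filter only through arrays without VHL, so their direction is no separate support. They were below the cutoff in wild type cells and at least 2.62 to 5.61-fold higher in VHL null cells. VHL/FIH null cells exceeded FIH null cells by 3.70 (SE 0.102, adjusted p = 8.80e-10). Against VHL null cells, Vldlr in VHL/FIH null cells fell by 0.35 (adjusted p = 0.0187). With arrays left out 1 at a time, the Vldlr fall lost its call without VHL/FIH null replicate 2 or either VHL null array (adjusted p from 0.057 to 0.116), or with no variance trend, probe sets averaged or cross-hybridizing probe sets dropped (adjusted p from 0.0748 to 0.267).

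Fabp4, a fatty acid binding protein best known from adipocytes and macrophages, was high in VHL/FIH null cells and not in either single null. It read 2153 and 1669 in VHL/FIH null, 261 and 209 in VHL null, 322 and 265 in FIH null and 330.3 and 403 in wild type cells. The 2 VHL/FIH null arrays lay above the other 6, at least 6.57-fold over VHL null cells, whose arrays were below the cutoff (adjusted p = 6.14e-06). Against wild type cells the log2 difference was 2.33 (SE 0.246, adjusted p = 2.51e-05), and against FIH null cells 2.63 (adjusted p = 8.36e-06). A second tested probe set passed the filter only through its VHL/FIH null arrays, so its direction is no separate support. It was below the cutoff in the other 3 groups and at least 4.5-fold higher in VHL/FIH null than in wild type cells. The remaining 2 were below the cutoff. VHL null cells, below the cutoff, did not pass against wild type (adjusted p = 0.0651), nor did FIH null minus wild type at -0.31 (adjusted p = 0.524).

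Most markers of adipocytes, macrophages and endothelial cells, which also make Fabp4, stayed below the cutoff. Of 12 adipocyte markers 9 had a probe set, and Adipoq, Lep, Cidec, Cebpa and Ucp1 were below the cutoff on every array. Pparg, the adipocyte transcription factor, was above it on every array, and Retn, Plin4 and Slc2a4 on 3 arrays each. None of these 4 passed between VHL/FIH null cells and another group. The summed signal of the 9 was 1955 to 2193 in VHL/FIH null, 2098 to 2545 in VHL null, 1718 to 2112 in FIH null and 2704 to 2939 in wild type cells. Pparg supplied much of it, at 1084 and 1263 in VHL/FIH null, 1302 and 1647 in VHL null, 974 and 1107 in FIH null and 1357 and 1428 in wild type cells. Of 10 macrophage markers 7, Ptprc and Adgre1 among them, were below the cutoff on all arrays, and Cd68, Csf1r and Cd14 above it on all arrays. Cd68 read 752 and 576 in VHL/FIH null, 517 and 516 in VHL null, 344 and 446 in FIH null and 482 and 410.4 in wild type cells. It was highest in VHL/FIH null cells, as Fabp4 was, and passed there against FIH null cells (0.72, adjusted p = 0.0263) but not against VHL null or wild type cells (adjusted p = 0.284 and 0.0836). Cd14 was lower in VHL/FIH null than VHL null cells (-0.75, adjusted p = 2.52e-04). The part of these markers in the Fabp4 result was not tested. The sum of the 10 was 3528 to 3726 in VHL/FIH null, 4556 to 4734 in VHL null, 3523 to 3671 in FIH null and 3639 to 4100.5 in wild type cells. Of 10 endothelial markers 6 were below it on all arrays, Tek and Gpihbp1 exceeded it on 1 VHL/FIH null array each, and neither Kdr nor Cldn5 passed in any comparison. The sum of the 10 was 1095 to 1609 in VHL/FIH null, 1034 to 1376 in VHL null, 929.5 to 1493 in FIH null and 1094 to 1272 in wild type cells.

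Fabp3, the heart-type binding protein, read 705 and 636 in VHL/FIH null, 638 and 628 in VHL null, 513 and 628 in FIH null and 872 and 1042 in wild type cells. By this probe set it was lower than wild type in VHL/FIH null (-0.50, adjusted p = 0.0484), VHL null (-0.58, adjusted p = 0.0248) and FIH null cells (-0.73, adjusted p = 0.0377). A second tested probe set read 244 and 299.8 in VHL/FIH null, 133 and 182 in VHL null, 376 and 338 in FIH null and 268 and 28 in wild type cells, so both VHL null and wild type lay below the cutoff. In FIH null cells it was at least 1.23-fold above wild type, opposite to the first probe set, and it gives no direction for the other groups against wild type. The call in VHL/FIH null was lost without either VHL/FIH null array, either VHL null array, FIH null replicate 2 or either wild type array (adjusted p from 0.0513 to 0.252), or with no filter, quantile normalization, median centring, probe sets averaged, a replicate block or only the compared groups fitted (adjusted p from 0.051 to 0.363). That in VHL null was lost without either VHL null array or wild type replicate 2 (adjusted p from 0.0787 to 0.161), or with no filter, quantile normalization or probe sets averaged (adjusted p from 0.0581 to 0.97), and that in FIH null without either VHL null array, either FIH null array or either wild type array (adjusted p from 0.0578 to 0.245), or with no filter, quantile normalization, probe sets averaged or only the compared groups fitted (adjusted p from 0.0528 to 0.469). Fabp5, the epidermal-type binding protein, passed in no comparison, with pairwise differences between -0.054 and 0.11.

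**Figure D2:**
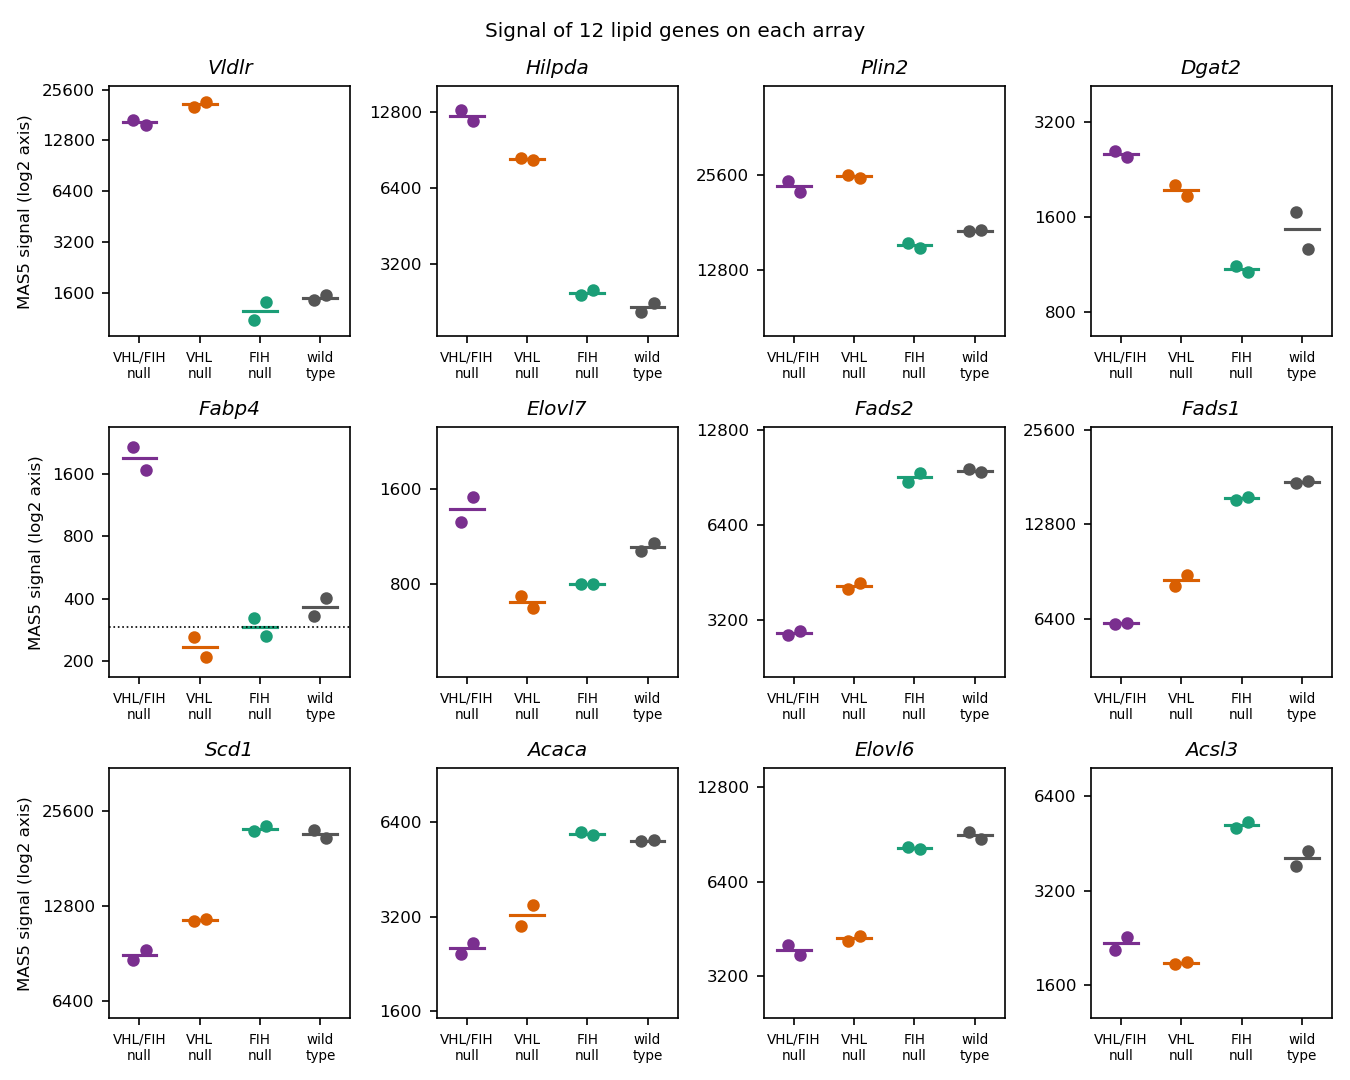
MAS5 signal (log2 axis) of 12 genes on each array, with VHL/FIH null, VHL null, FIH null and wild type from left to right. Points are arrays, bars are means of 2, and the dotted line is the cutoff of 291.1. Vldlr, Hilpda and Plin2 are high in both groups without VHL, Fabp4 is high in VHL/FIH null cells, and the 6 last genes are low in both groups without VHL.

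Of 6 tested genes of droplets and lipolysis, Hilpda and Plin2 rose with loss of VHL while the lipase gene Pnpla2 fell. Hilpda encodes a small droplet protein that inhibits the Pnpla2 lipase. Hilpda signal was 13016 and 11811 in VHL/FIH null, 8443 and 8306 in VHL null, 2403 and 2516 in FIH null and 2059.6 and 2234 in wild type cells. VHL/FIH null arrays were highest and VHL null arrays next, with no overlap between these groups or with the rest. VHL null cells had 3.9-fold the wild type signal (log2 difference 1.96, SE 0.0765, adjusted p = 1.56e-08) and VHL/FIH null cells 5.78-fold (2.52, adjusted p = 1.82e-09). Hilpda was also higher in VHL/FIH null than in VHL null cells (0.57, SE 0.0765, adjusted p = 1.99e-04). FIH null minus wild type was 0.20 without passing (adjusted p = 0.169).

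Pnpla2, the first lipase of triglyceride breakdown, read 1192 and 1068 in VHL/FIH null, 1261 and 1370.4 in VHL null, 1401 and 1693 in FIH null and 1896 and 1749 in wild type cells. The VHL/FIH null arrays were the lowest. It fell by 0.68 in VHL/FIH null (adjusted p = 0.00158) and by 0.47 in VHL null cells against wild type (adjusted p = 0.0138). The Pnpla2 call in VHL null cells was lost without VHL null replicate 1 or wild type replicate 1 (adjusted p from 0.084 to 0.0902), or with quantile normalization (adjusted p = 0.0709). Lipe, the hormone-sensitive lipase gene, and Mgll, the monoglyceride lipase gene, read at most 499 and passed in no pairwise comparison.

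Plin2, the perilipin that coats droplets in most cells, read 24572 and 22628 in VHL/FIH null, 25696 and 25042 in VHL null, 15625 and 15074 in FIH null and 16989.7 and 17089 in wild type cells. The 4 arrays without VHL lay above the 4 with it. Plin2 rose by 0.57 in VHL null cells against wild type (SE 0.058, adjusted p = 2.53e-05) and by 0.62 in VHL/FIH null against FIH null cells (adjusted p = 8.62e-06). In VHL/FIH null against wild type cells it rose by 0.47 (adjusted p = 8.19e-05), which scaling to hybridization controls turned to -0.053 (adjusted p = 0.453). Plin3, a perilipin that moves between cytosol and droplets, read 5358 and 4920.4 in VHL/FIH null, 2251 and 3138 in VHL null, 6054 and 5158 in FIH null and 4702 and 4072 in wild type cells. VHL null arrays stood below the other 6. Plin3 was lower in VHL null than wild type cells (-0.72, SE 0.141, adjusted p = 0.00191) and higher in VHL/FIH null than VHL null cells (0.95, adjusted p = 3.89e-04).

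Acaca, Acly and Fasn, the main genes of fatty acid synthesis, were low without VHL, and lowest in VHL/FIH null cells in the probe sets used. Of 5 tested, 4 fell in VHL/FIH null and 3 in VHL null cells against wild type, and 4 were lower in VHL/FIH null than in VHL null cells. Of all tested genes 23.6%, 28.4% and 15.4% were lower in these comparisons. Acaca, the cytosolic acetyl-CoA carboxylase that commits carbon to fatty acids, read 2426 and 2642 in VHL/FIH null, 2989 and 3470.1 in VHL null, 5939.9 and 5799 in FIH null and 5552 and 5590 in wild type cells. All 4 arrays without VHL lay below the 4 with it (-0.79 in VHL null minus wild type, SE 0.0862, adjusted p = 4.36e-05, and -1.21 in VHL/FIH null minus FIH null, adjusted p = 1.01e-06). VHL/FIH null cells were below VHL null cells in Acaca (-0.35, adjusted p = 0.0089), a call lost without VHL/FIH null replicate 1 or VHL null replicate 2 (adjusted p from 0.0526 to 0.082), or with probe sets averaged (adjusted p = 0.0751). Its second tested probe set gave -0.070 there, with 692 and 614 in VHL/FIH null and 756 and 619.9 in VHL null cells, which overlap. Acly, the citrate lyase that supplies cytosolic acetyl-CoA, read 18203 and 16850.5 in VHL/FIH null, 21264 and 21921 in VHL null, 29379 and 27848 in FIH null and 28419 and 27416 in wild type cells. It was lower in VHL null than wild type cells (-0.37, SE 0.0594, adjusted p = 5.45e-04) and lower again in VHL/FIH null than VHL null cells (-0.30, adjusted p = 0.0023).

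Fasn, the fatty acid synthase, read 12556 and 11514 in VHL/FIH null, 14305 and 15818 in VHL null, 17471 and 18574 in FIH null and 19194 and 18067 in wild type cells. The VHL/FIH null arrays were lowest of all. Fasn fell by 0.63 in VHL/FIH null (SE 0.0706, adjusted p = 3.89e-05) and by 0.31 in VHL null cells against wild type (adjusted p = 0.00478), and the smaller fall lost its call without VHL null replicate 1 (adjusted p = 0.0545). Mcat, the mitochondrial malonyl transferase, read 1911 and 1566 in VHL/FIH null, 2439 and 2168 in VHL null, 2686 and 2553 in FIH null and 2403 and 2412 in wild type cells. It was low in VHL/FIH null cells (-0.47 against wild type, adjusted p = 0.00578), while VHL null minus wild type was -0.066 without passing (adjusted p = 0.659). The Mcat difference between VHL/FIH null and VHL null cells (-0.41, adjusted p = 0.0146) lost its call without VHL/FIH null replicate 2 or VHL null replicate 1 (adjusted p from 0.0977 to 0.112). Acss2, the cytosolic acetyl-CoA synthetase, passed in VHL/FIH null minus FIH null alone (-0.47, adjusted p = 0.00653), where its other tested probe set gave 0.19 and the call was lost with probe sets averaged (adjusted p = 0.333).

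Of 12 tested genes of desaturation and elongation, 1 rose and 9 fell in VHL null cells, and 1 rose and 8 fell in VHL/FIH null cells, both against wild type. Among all tested genes 15.5% rose and 28.4% fell in the first comparison, and 17.8% rose and 23.6% fell in the second. Fads2, the delta-6 desaturase that starts the making of polyunsaturated fatty acids, read 2865 and 2956 in VHL/FIH null, 4010.3 and 4183 in VHL null, 8788 and 9372 in FIH null and 9629 and 9421 in wild type cells. Fads1, the delta-5 desaturase of the same gene cluster, read 6183 and 6203 in VHL/FIH null, 8135 and 8856 in VHL null, 15344 and 15677 in FIH null and 17284 and 17614 in wild type cells. For both genes VHL/FIH null arrays were lowest and VHL null arrays next, and FIH null minus wild type did not pass (-0.070 for Fads2, adjusted p = 0.602, and -0.17 for Fads1, adjusted p = 0.131). Fads2 in VHL/FIH null cells fell to 0.306 of its wild type signal (log2 difference -1.71, SE 0.0668, adjusted p = 1.08e-08), and in VHL null cells to 0.43 (-1.21, adjusted p = 2.54e-07).

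The difference between VHL/FIH null and VHL null cells was -0.49 for Fads2 (adjusted p = 2.09e-04), and its 3 tested probe sets gave -0.43 to -0.54. For Fads1 it was -0.45 (adjusted p = 1.78e-04), but the second probe set gave 0.36, and their mean gave no call (adjusted p = 0.722). Against wild type both Fads1 probe sets were lower, at -1.04 and -0.996 in VHL null and -1.49 and -0.63 in VHL/FIH null cells. Fads3, the third gene of the cluster, passed in 1 comparison, higher in VHL/FIH null than in VHL null cells by 0.40 (adjusted p = 0.00298).

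Scd1, a delta-9 desaturase that makes oleate, read 8616 and 9288 in VHL/FIH null, 11442 and 11654 in VHL null, 22188 and 22989.8 in FIH null and 22315 and 21026 in wild type cells. Its groups without VHL were below those with it, VHL/FIH null cells lowest (-0.91 in VHL null minus wild type, SE 0.0606, adjusted p = 1.16e-06, and -0.37 in VHL/FIH null minus VHL null, adjusted p = 7.54e-04). The paralog Scd2 fell by 0.49 in VHL null (adjusted p = 1.34e-04) and by 0.49 in VHL/FIH null cells against wild type (adjusted p = 1.06e-04), with no call between these 2 groups (-0.0030, adjusted p = 0.976). Its 2 dimmer probe sets gave larger falls, -0.85 and -0.95 in VHL null and -1.18 and -0.94 in VHL/FIH null cells. Probes of the paralogs may cross-hybridize, so their values are less certain.

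The elongases did not move as a family. Elovl6, which extends palmitate to stearate, read 4019 and 3753 in VHL/FIH null, 4147 and 4312 in VHL null, 8218 and 8098 in FIH null and 9217 and 8774 in wild type cells. The 4 arrays without VHL were below the other 4 (-1.09 in VHL null minus wild type, SE 0.0673, adjusted p = 6.65e-07). Between VHL/FIH null and VHL null cells Elovl6 differed by -0.12 without passing (adjusted p = 0.179). Elovl4, an elongase of very long chains, read 1747 and 1616 in VHL/FIH null, 1842 and 1695 in VHL null, 628 and 706 in FIH null and 1107 and 1054 in wild type cells. Here the groups without VHL were above wild type and FIH null cells below it. Elovl4 rose by 0.70 in VHL null (adjusted p = 0.00119) and by 0.63 in VHL/FIH null cells (adjusted p = 0.00226), and fell by 0.69 in FIH null cells (adjusted p = 0.00832). The Elovl4 fall lost its call without FIH null replicate 1 or wild type replicate 1 (adjusted p from 0.063 to 0.074). The rise in VHL/FIH null cells lost its call with scaling to hybridization controls (adjusted p = 0.45).

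Elovl7, an elongase of saturated long chains, is given per array as a choice made after its values were seen, at 1262 and 1514 in VHL/FIH null, 730 and 672 in VHL null, 799 and 801 in FIH null and 1015 and 1078 in wild type cells. VHL/FIH null arrays were above the rest and VHL null arrays below wild type. Elovl7 was higher in VHL/FIH null than VHL null cells (0.96, SE 0.148, adjusted p = 4.70e-04). Another 2 tested probe sets gave 1.26 and 1.37, the latter with 133 and 327 in VHL null cells, on both sides of the cutoff. A further 2 passed the filter only through their VHL/FIH null arrays, so their direction is no separate support. They were below the cutoff in VHL null cells and at least 1.78-fold and 1.21-fold higher in VHL/FIH null cells. Elovl7 was lower in VHL null than wild type cells (-0.57, adjusted p = 0.00945), a call lost without VHL null replicate 2 or wild type replicate 2 (adjusted p from 0.0529 to 0.0569), or with probe sets averaged or cross-hybridizing probe sets dropped (adjusted p from 0.0563 to 0.0867). Elovl5, which serves the polyunsaturated series, fell by 0.46 in VHL null (adjusted p = 1.13e-04) and by 0.43 in VHL/FIH null cells against wild type (adjusted p = 1.53e-04). Tecr, the reductase that ends each elongation cycle, fell by 0.59 in VHL null (adjusted p = 3.62e-05) and by 0.49 in VHL/FIH null cells (adjusted p = 9.74e-05). Hsd17b12, the ketoreductase of the cycle, fell by 0.34 in VHL/FIH null cells (adjusted p = 6.50e-04), and VHL null minus wild type was -0.12 without passing (adjusted p = 0.0954). Elovl1 passed in VHL null minus wild type at -0.18 (adjusted p = 0.0451) and lost that call without VHL null replicate 2, either FIH null array or either wild type array (adjusted p from 0.0512 to 0.282), or with no filter, median centring, no variance trend or only the compared groups fitted (adjusted p from 0.0535 to 0.365).

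Of the acyl-CoA synthetases, which activate fatty acids, Acsl3 and Acsl5 fell in VHL null cells against wild type. A rise of Acsl4 there rested on the probe set used. Acsl3, found on the endoplasmic reticulum and on droplets, read 2076 and 2276 in VHL/FIH null, 1872 and 1899.6 in VHL null, 5061 and 5271 in FIH null and 3821 and 4285 in wild type cells. Arrays without VHL were below those with it. The Acsl3 difference was -1.10 in VHL null minus wild type (SE 0.0886, adjusted p = 5.03e-06) and -0.89 in VHL/FIH null minus wild type (adjusted p = 1.58e-05). It was the 1 gene of the 37 that rose in FIH null cells (0.35, adjusted p = 0.0388), a call lost without either VHL null array, either FIH null array or either wild type array (adjusted p from 0.0588 to 0.235), or with no filter, scaling to hybridization controls, no variance trend, probe sets averaged or cross-hybridizing probe sets dropped (adjusted p from 0.0593 to 0.804). Acsl5 read 11691 and 11782 in VHL/FIH null, 10007 and 9432 in VHL null, 14448 and 15582 in FIH null and 13450 and 13654 in wild type cells. It was lowest in VHL null cells (log2 difference -0.48 from wild type, adjusted p = 1.16e-04). Its smaller fall in VHL/FIH null cells (-0.21, adjusted p = 0.0178) lost its call without VHL/FIH null replicate 1 or either wild type array (adjusted p from 0.0502 to 0.0789), or with median centring or no variance trend (adjusted p from 0.0547 to 0.151). Acsl4, which prefers arachidonate, was higher in VHL null than wild type cells (0.29, adjusted p = 0.0281). That call was lost without either VHL null array or wild type replicate 1 (adjusted p from 0.0519 to 0.207), or with scaling to hybridization controls, no variance trend or probe sets averaged (adjusted p from 0.0978 to 0.658), and its other probe sets gave -0.49 and 0.05.

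Of 7 tested genes of glycerolipid assembly, Dgat2 rose and 3 others fell in VHL null cells against wild type. Among all tested genes 15.5% rose and 28.4% fell there. Dgat2, which makes triglyceride in the last step, read 2601 and 2476 in VHL/FIH null, 2023 and 1869 in VHL null, 1122 and 1074 in FIH null and 1661 and 1265 in wild type cells. VHL/FIH null cells were highest and VHL null cells second by this probe set (0.38 between them, adjusted p = 0.0413). That call was lost without either VHL/FIH null array, either VHL null array or either FIH null array (adjusted p from 0.0537 to 0.18), or with no filter, quantile normalization, median centring, scaling to hybridization controls, no variance trend or probe sets averaged (adjusted p from 0.0549 to 0.192). The other tested probe set read 1493 and 1404 in VHL/FIH null and 1363 and 1632 in VHL null cells, which overlap (-0.043), and gave 0.47 in VHL/FIH null minus FIH null. By the first probe set the Dgat2 difference was 1.20 in VHL/FIH null minus FIH null (SE 0.132, adjusted p = 2.97e-05), 0.80 in VHL/FIH null minus wild type (adjusted p = 6.12e-04) and 0.42 in VHL null minus wild type (adjusted p = 0.0239). The difference in VHL null cells lost its call without either VHL null array or wild type replicate 2 (adjusted p from 0.0538 to 0.206), or with no variance trend (adjusted p = 0.0513). Scaling to hybridization controls ended both calls against wild type (adjusted p = 0.0676 in VHL/FIH null and 0.764 in VHL null cells). Dgat1, an unrelated enzyme of the same step, fell by 0.26 in VHL/FIH null cells against wild type (adjusted p = 0.0218), a call lost without VHL/FIH null replicate 2 or wild type replicate 1 (adjusted p from 0.119 to 0.149), or with quantile normalization, median centring, cross-hybridizing probe sets dropped or only the compared groups fitted (adjusted p from 0.0526 to 0.153).

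The acyltransferase gene Agpat2 read 4602 and 3594 in VHL/FIH null, 4279.7 and 3512 in VHL null, 5838 and 5222 in FIH null and 6082 and 5268 in wild type cells. Both groups without VHL were low. Agpat2 fell by 0.54 in VHL null (adjusted p = 0.00573) and by 0.48 in VHL/FIH null cells against wild type (adjusted p = 0.0123). Its VHL null call was lost without VHL null replicate 2 or wild type replicate 1 (adjusted p from 0.0557 to 0.0651). Its VHL/FIH null call was lost without VHL/FIH null replicate 2 or wild type replicate 1 (adjusted p up to 0.108), or with no variance trend (adjusted p = 0.0673). Gpam, the mitochondrial acyltransferase that opens the pathway, fell by 0.27 in VHL null cells (adjusted p = 0.0277), a call lost without either VHL null array or wild type replicate 1 (adjusted p from 0.0797 to 0.171), or with quantile normalization, median centring or no variance trend (adjusted p from 0.0678 to 0.142). Lpin2, a phosphatidate phosphatase gene, fell by 0.32 there (adjusted p = 0.0118), a call lost without VHL null replicate 2 or wild type replicate 2 (adjusted p from 0.0687 to 0.0688), or with quantile normalization, median centring or probe sets averaged (adjusted p from 0.0621 to 0.636). Agpat1 and Lpin1 passed in no pairwise comparison.

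Loss of VHL can be read from 2 comparisons that share no array, VHL/FIH null with FIH null cells and VHL null with wild type cells. Lower in both were 14 genes, 77.8% of the 18 lower in the first and 70.0% of the 20 lower in the second. Higher in both were Vldlr, Hilpda, Plin2, Dgat2 and Elovl4, which are 5 genes, 71.4% of 7 and 83.3% of 6. Of the 37, 37.8% were lower in both, beside 14.8% of all tested genes, and 13.5% higher in both, beside 8.57%. Elovl7 passed in opposite directions, as did 3.35% of all genes. Loss of FIH likewise has VHL/FIH null with VHL null cells (19 genes) and FIH null with wild type cells (3 genes), and none of the 37 passed in both, where 3.04% of all genes did so in the same direction and 1.14% in opposite ones. By the probe sets used, in 11 genes both VHL/FIH null arrays lay below all 6 others (Acly, Acaca, Fasn, Mcat, Scd1, Fads1, Fads2, Elovl6, Hsd17b12, Dgat1 and Pnpla2), and in 4 above them (Elovl7, Dgat2, Hilpda and Fabp4). That is 29.7% below and 10.8% above, where 14.3% and 16.1% of all tested genes lay so. Other tested probe sets of Acaca, Fads1, Elovl6 and Dgat2 broke this order against VHL null arrays. For Elovl6 the next brightest read 2769 and 2785 in VHL/FIH null and 2439 and 3196.5 in VHL null cells.

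The interaction, VHL/FIH null minus FIH null less VHL null minus wild type, passed for 6 genes upward and 6 downward of the 37. Of all tested genes it passed in 21.9% (13.4% higher and 8.47% lower). Of all calls 61.4% were higher, which became 80.9% with scaling to hybridization controls and 39.5% with centring on the median. The 37 genes followed, with 10 higher and 1 lower under the first and 3 higher and 9 lower under the second. Fabp4 had the largest value (3.24, SE 0.347, adjusted p = 1.02e-04, and at least 2.94 with VHL null arrays, which lay below the cutoff, set to it), and Elovl7 the next among those that passed (1.35, SE 0.209, adjusted p = 0.00118). Dgat2 (0.78), Elovl4 (0.61) and Hilpda (0.37) rose more with loss of VHL in FIH null cells, and Mcat (-0.53), Scd1 (-0.43), Fads2 (-0.42), Acaca (-0.42) and Acly (-0.34) fell further there. Scaling to hybridization controls ended the calls of Mcat, Fads2, Acaca, Acly and Fads1, and centring on the median those of Hilpda, Elovl4 and Fabp3. The count dropped to 5 without FIH null replicate 1 or wild type replicate 2, to 6 without VHL null replicate 2, and to 7 without FIH null replicate 2 or wild type replicate 1.

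**Figure D3:**
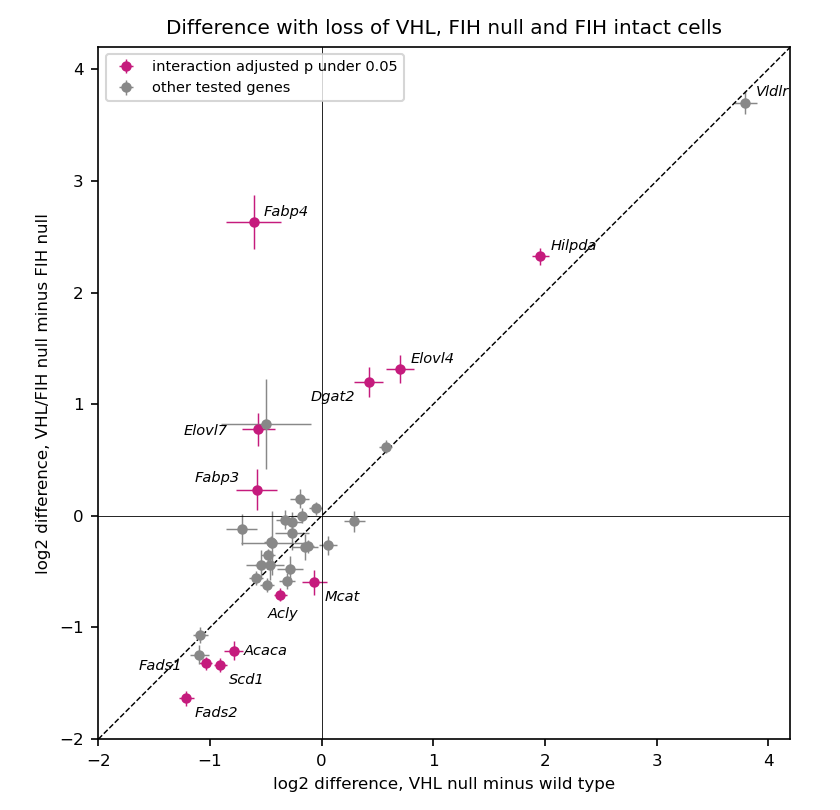
Log2 difference with loss of VHL in FIH null cells (VHL/FIH null minus FIH null, vertical) against that in cells with FIH (VHL null minus wild type, horizontal), 1 point per tested gene with bars of 1 SE. On the dashed line both are equal, and pink marks the 12 genes whose interaction passed, with Fabp4 (2.63 on the vertical axis, and below the cutoff in VHL null cells) farthest from it.

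Genes of the same pathways outside the 41 went in both directions. Of 52 listed, 48 had a probe set and 29 were tested. In VHL null cells 5 rose and 10 fell, and in VHL/FIH null cells 10 rose and 6 fell, both against wild type. Of all tested genes 43.8% and 41.4% differed in these comparisons. Mid1ip1, an activator of acetyl-CoA carboxylase, fell by 1.20 in VHL null cells (adjusted p = 1.39e-07) and was higher in VHL/FIH null than VHL null cells by 0.57 (adjusted p = 3.49e-05). The citrate carrier gene Slc25a1 fell by 0.76 in VHL null cells (adjusted p = 8.99e-06). Slc27a3, of the fatty acid transport protein family, rose by 1.84 in VHL/FIH null cells against wild type (adjusted p = 7.90e-07). Mogat2, a monoacylglycerol acyltransferase gene, was at least 4.11-fold higher in VHL/FIH null than in VHL null cells, where it lay below the cutoff (adjusted p = 8.20e-06). The malic enzyme gene Me1 rose by 0.83 in the same comparison (adjusted p = 7.71e-07). In FIH null cells the seipin gene Bscl2, which acts in droplet formation, fell by 0.54 (adjusted p = 0.00354).

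Of 25 listed regulators 20 were tested. Against wild type, in VHL null cells 2 rose and 7 fell, and in VHL/FIH null cells 2 rose and 7 fell. Among all tested genes 43.8% and 41.4% differed in these comparisons, a similar share. Epas1, among those that rose in VHL/FIH null cells, lay below the cutoff in every other group. Srebf2, whose protein drives sterol genes, had a mean signal of 2995 ± 267 in VHL/FIH null, 4422 ± 84 in VHL null, 8883 ± 294 in FIH null and 8999 ± 157 in wild type cells (SD, n = 2 each). Srebf1, whose protein drives fatty acid synthesis genes, averaged 5580.1 ± 179 in VHL/FIH null, 6168 ± 488 in VHL null, 9810.3 ± 135 in FIH null and 8328 ± 382 in wild type cells (SD, n = 2 each). Both were lower in the groups without VHL. In VHL/FIH null cells against wild type Srebf2 fell by 1.58 (adjusted p = 4.40e-08) and Srebf1 by 0.58 (adjusted p = 8.57e-05). Insig1, which retains SREBP and is itself a SREBP target, fell by 1.05 (adjusted p = 2.35e-05). Its paralog Insig2 went the other way. Insig2 rose against wild type in VHL null cells (0.46, adjusted p = 2.25e-04) and also passed as higher in VHL/FIH null cells. Srebf2 was also lower in VHL/FIH null than in VHL null cells (-0.56, adjusted p = 1.78e-04).

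In the promoter windows, ACGTG, a core of hypoxia response elements, was found in 31.2% of the 32 genes and 18.5% of all 27025 genes with a window. GCGTG, the other core, was in 56.2% of the 32 and 30.9% of all genes. CACCCCA, a sterol element core, was in 18.8% and 7.64%, CCAAT in 56.2% and 37.5%, and the E-box CACGTG, which contains ACGTG, in 12.5% and 6.86%. A gene with several windows counts where any of them holds the letters, on either strand, and a match is a description, not a site. All 27025 genes, with 32851 windows, were counted whether expressed or not. They were not matched to the 32 in windows per gene or base content, so enrichment was not tested. In the windows printed above, Hilpda (the second of its 2 start sites) has GCGTG 111 and 8 bases before the start and ACGTG 43 bases before it. Plin2 has GCGTG 86 bases before the start, on the other strand, and CCAAT 73 bases before it. Fasn has 3 CCAAT matches (90, 62 and 59 bases before the start), of which the last 2 overlap on opposite strands. Of these, only the match at 62 is on the gene's strand. Fasn also has GCGTG 36 bases before the start, on the other strand. Vldlr (the second of 2 start sites) has CCAAT 78 bases before the start, on the other strand. The windows of the first start sites of Hilpda and Vldlr, not printed, held none of these motifs.

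Genes with more than 1 tested probe set allowed a check within the array. It covered probe sets that exceeded the cutoff on at least 1 array of each group compared. In VHL null minus wild type 3 of 18 called genes (Elovl1, Acsl4 and Lpin2) had another such probe set of the opposite sign. It was 1 of 2 in FIH null minus wild type (Acsl3), 0 of 14 in VHL/FIH null minus wild type, 3 of 12 in VHL/FIH null minus VHL null (Fads1, Lpin2 and Dgat2), 1 of 16 in VHL/FIH null minus FIH null (Acss2) and 1 of 8 in the interaction (Fads1).

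**Figure D4:**
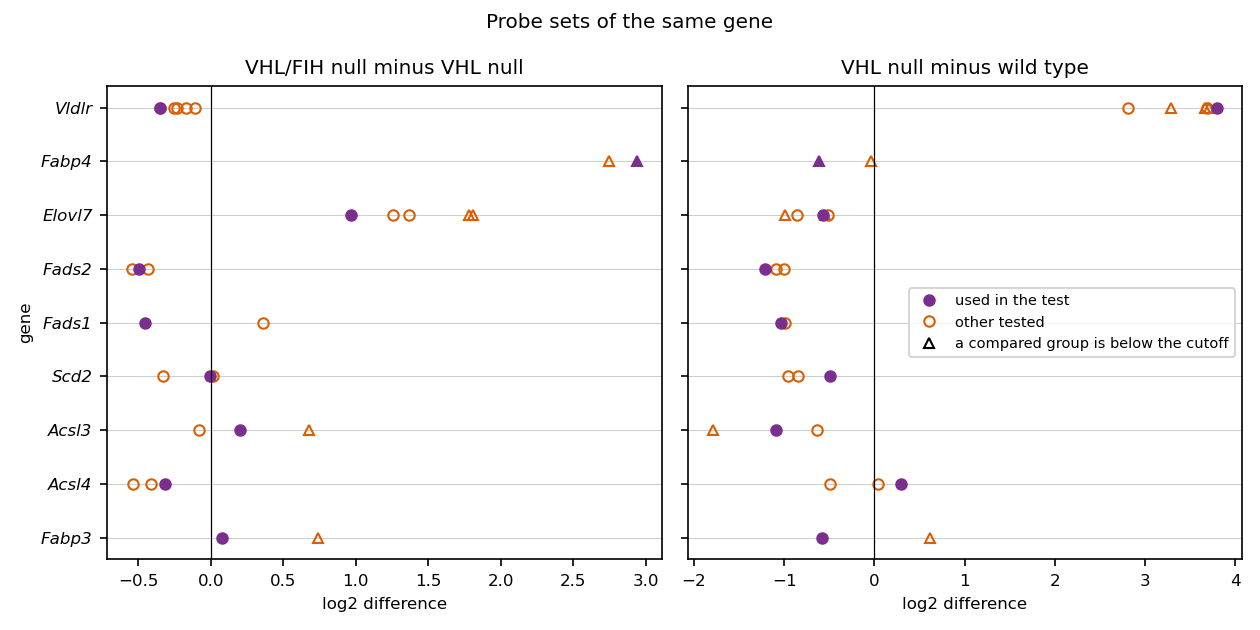
Log2 differences of each tested probe set of 9 genes, VHL/FIH null minus VHL null on the left and VHL null minus wild type on the right, filled for the probe set used in the test and open for others. Triangles mark a compared group below the cutoff on both its arrays, where the size is not measured. The circles of Vldlr lie far right of 0 on the right and those of Elovl7 right of 0 on the left. Probe sets of these genes shown there as triangles passed the filter only through groups where they are higher. The circles of Fads1 (left) and Acsl4 (right) lie on both sides of 0.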

How the data were processed

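RNA of 8 samples was hybridized to 1 array each. The authors deposited linear signal intensities from MAS5, a name taken from the submitters' processing notes. The MAS5 version is not given in the sources used here. The trimmed mean of an array (2% left off each end) averaged 2500.01 over the 8 arrays. The deposited values were not scaled again. The number of arrays limits the precision.

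From 45101 probe sets, 64 of them controls, log2(signal + 16) was computed. Symbols came from the platform annotation, updated through Entrez numbers: 34945 probe sets had 1 symbol, 932 several and 9160 none, and only the first kind was used. limma 3.58.1 in R 4.3.3 fitted 4 group means to all arrays, with a variance trend in eBayes, and tested 6 contrasts with Benjamini-Hochberg adjustment over all tested genes (two-sided). An "at least" fold divides a group's mean signal by the cutoff, where the other group lies below it. The genes, lists and settings were chosen with earlier results of these data known, so no count is independent support. Signals per array are given for up to 5 genes a role, 20 in all, with the largest called differences, and for the other lists up to 4 genes a comparison with the smallest p may be named. The difference of replicate 2 from replicate 1 had correlations between 0.00869 and 0.0393 across the 6 pairs of groups. The labels name no pairing, and samples were not paired in the main fit. These correlations run over all tested genes, so they cannot exclude a pairing that affects some of them. Alternatives were pseudocounts of 1 and 64, other filters, other scalings, no variance trend, a 2-fold limit, the mean over a gene's probe sets, dropping _x_at and _s_at probe sets, a replicate block, only the compared groups, and each array left out in turn.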

Additional observations from a re-analysis of the deposited data

Results flagged for a closer look

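The change with loss of VHL differed between cells without and with FIH for 12 of the 37 tested genes, by limma's interaction term (VHL/FIH null minus FIH null, less VHL null minus wild type, log2 scale, n = 2 arrays a group). That is 32.4% of the 37, where 21.9% of all tested genes passed (13.4% higher and 8.47% lower). The directions followed the scaling, with 10 higher and 1 lower after scaling to hybridization controls. Centring on the median gave 3 higher and 9 lower. Negative values were found for Mcat (-0.53, adjusted p = 0.0352), Scd1 (-0.43, adjusted p = 0.00492), Fads2 (-0.42, adjusted p = 0.00901), Acaca (-0.42, adjusted p = 0.0303), Acly (-0.34, adjusted p = 0.0152) and Fads1 (-0.28, adjusted p = 0.0353). Positive values were found for Hilpda (0.37, adjusted p = 0.0314), Elovl4 (0.61, adjusted p = 0.0318), Dgat2 (0.78, adjusted p = 0.0128), Fabp3 (0.81, adjusted p = 0.0456), Elovl7 (1.35, adjusted p = 0.00118) and Fabp4 (3.24, adjusted p = 1.02e-04). With loss of VHL, Fabp4 changed by 2.63 in FIH null cells and by -0.31 or less in cells with FIH, whose VHL null arrays lay below the cutoff (not passing, adjusted p = 0.0651). Its interaction is then at least 2.94. Elovl7 changed by 0.78 in FIH null cells and by -0.57 in cells with FIH. Scd1, Elovl7 and Fabp4 kept their interaction calls under each alternative that gave them a value. The 2-fold limit is not counted here, and Scd1 did not meet it. The other 9 genes lost their calls under at least 1 alternative. A second probe set had the opposite sign for Fads1 (0.40), and that of Dgat2 gave 0.00536 and that of Acaca -0.09. For Fabp3 the second probe set also had the opposite sign, but it lay below the cutoff in VHL null and wild type cells. Mcat lost its call without VHL/FIH null replicate 2, VHL null replicate 1, either FIH null array or either wild type array (adjusted p from 0.0704 to 0.123), or with no filter, scaling to hybridization controls or no variance trend (adjusted p from 0.0578 to 0.0829). Fads2 lost its call without FIH null replicate 2 (adjusted p = 0.0509), or with scaling to hybridization controls (adjusted p = 0.0734). Acaca lost its call without VHL/FIH null replicate 1, VHL null replicate 2, either FIH null array or either wild type array (adjusted p from 0.0705 to 0.103), or with scaling to hybridization controls, no variance trend or probe sets averaged (adjusted p from 0.078 to 0.152). Acly lost its call without VHL null replicate 2, FIH null replicate 1 or wild type replicate 2 (adjusted p from 0.0556 to 0.0761), or with scaling to hybridization controls or no variance trend (adjusted p from 0.0688 to 0.0712). Fads1 lost its call without either VHL/FIH null array, VHL null replicate 2, either FIH null array or either wild type array (adjusted p from 0.0519 to 0.118), or with quantile normalization, scaling to hybridization controls, no variance trend or probe sets averaged (adjusted p from 0.0595 to 0.781). Hilpda lost its call without VHL/FIH null replicate 1, either VHL null array, either FIH null array or wild type replicate 2 (adjusted p from 0.0582 to 0.107), or with quantile normalization, median centring or no variance trend (adjusted p from 0.0503 to 0.125). Elovl4 lost its call without VHL/FIH null replicate 1, either VHL null array, FIH null replicate 1 or either wild type array (adjusted p from 0.0574 to 0.105), or with no filter, quantile normalization or median centring (adjusted p from 0.0628 to 0.0903). Dgat2 lost its call without VHL null replicate 2 (adjusted p = 0.0506), or with probe sets averaged (adjusted p = 0.067). Fabp3 lost its call without either VHL/FIH null array, either VHL null array, FIH null replicate 1 or either wild type array (adjusted p from 0.0555 to 0.152), or with no filter, quantile normalization, median centring or probe sets averaged (adjusted p from 0.0741 to 0.918).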

How the results depend on the processing

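A limit of 2-fold on top of the adjusted p left 6 genes in VHL null minus wild type, 0 in FIH null minus wild type, 8 in VHL/FIH null minus wild type, 1 in VHL/FIH null minus VHL null, 11 in VHL/FIH null minus FIH null and 2 for the interaction. The 3 genes of FIH null minus wild type became 1 with no filter, 1 under a filter at the 75th percentile, 8 after centring on the median and 22 after scaling to hybridization controls. The 12 of the interaction became 7 without a variance trend. Leaving out 1 array gave 18 to 28 genes in VHL null minus wild type, 0 to 4 in FIH null minus wild type, 20 to 24 in VHL/FIH null minus wild type, 14 to 19 in VHL/FIH null minus VHL null, 23 to 25 in VHL/FIH null minus FIH null and 5 to 12 for the interaction. In FIH null minus wild type no gene passed without FIH null replicate 1 or wild type replicate 1, and 1 passed when either VHL null array was left out. A replicate block gave 27, 3, 24, 20, 25 and 14 genes in that order of comparisons. All other settings tried moved no count by over 1.5 times. Calls that held under each alternative giving a value were 16 of 26, 0 of 3, 17 of 24, 9 of 19, 21 of 25 and 3 of 12, in the same order. The 2-fold limit is not among the alternatives counted there.

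Signs of called differences turned when probe sets were averaged for Acsl4 (-0.051) and Fabp3 (0.019) in VHL null minus wild type, Fabp3 (0.50) in FIH null minus wild type, Fabp3 (0.43) in VHL/FIH null minus wild type, Lpin2 (-0.099) in VHL/FIH null minus VHL null, and Fads1 (0.058) and Fabp3 (-0.092) in the interaction. The Fabp3 means include a probe set below the cutoff in wild type cells. Signs also turned with scaling to hybridization controls for Acsl4 (-0.082) in VHL null minus wild type, Plin2 (-0.053) and Me1 (-0.045) in VHL/FIH null minus wild type, and Me1 (-0.026) in FIH null minus wild type. Differences without a call became calls of the opposite sign under that scaling, which lowers every gene of the null groups, for Dgat1 (-0.31) in VHL null minus wild type, Acly (-0.22), Scd1 (-0.20), Tecr (-0.19) and Dgat1 (-0.26) in FIH null minus wild type, Fads3 (-0.32), Lpin1 (-0.45), Plin3 (-0.29) and Fabp5 (-0.47) in VHL/FIH null minus wild type, and Elovl1 (-0.26) and Fabp5 (-0.19) in VHL/FIH null minus FIH null. So did Fabp5 (-0.11) in VHL/FIH null minus wild type with quantile normalization and Elovl1 (-0.19) in VHL/FIH null minus FIH null once probe sets that may cross-hybridize were left out. Beyond these constructions the cause was not tested.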

Other observations

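Some regulators and transporters not described above also differed. Ppargc1a, a coactivator of mitochondrial genes, had a mean signal of 288 ± 82.7 in VHL/FIH null, 506 ± 76.4 in VHL null, 119 ± 41.8 in FIH null and 484 ± 30.9 in wild type cells (SD, n = 2 each). FIH null arrays lay below the cutoff, so Ppargc1a was at least 1.66-fold lower there than in wild type cells (adjusted p = 0.00664). It was the 1 regulator that passed in FIH null minus wild type, and it lost that call without wild type replicate 2 (adjusted p = 0.0595). Epas1, the gene of HIF-2 alpha, averaged 577 ± 118 in VHL/FIH null, 182 ± 32.1 in VHL null, 136 ± 34.6 in FIH null and 218 ± 6.43 in wild type cells (SD, n = 2 each), and all groups but VHL/FIH null lay below the cutoff. Cebpb, a transcription factor of early adipocyte differentiation, fell by 0.59 in VHL/FIH null cells against wild type (adjusted p = 1.22e-04) and by 0.57 against VHL null cells (adjusted p = 2.09e-04). Dbi, an acyl-CoA binding protein gene, fell by 0.66 in VHL/FIH null against FIH null cells (adjusted p = 6.25e-06).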
